A study of Rattus norvegicus with 10 samples.

Results

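The collagen genes are the transcripts whose symbol in the expression table has the form of a collagen chain (Col, a type number, a and a chain number). The table lists 24 of them among 17221 transcripts, 1 transcript for each symbol. By type number, 9 are fibrillar collagens (types I, II, III, V, XI and XXVII), 4 are collagens of the basement membrane (types IV and XVIII) and 11 belong to other classes. Chains such as Col4a2, Col6a1, Col11a1, Col15a1, Col19a1 and Col22a1 were not analysed here. The samples were RNA-seq libraries of muscle lying under the skin. The donors were female Wistar rats made arthritic by immunisation with type II collagen (collagen-induced arthritis, which stands in for human rheumatoid arthritis, RA). They formed 5 groups of 2 libraries each, and every group carried the disease, so no healthy muscle stands beside them. RA_0 was taken before therapy, AP_1h and AP_34d were taken 1 h and 34 days into acupuncture (AP, a short needle that is inserted and twirled), and PLA_1h and PLA_34d were taken at the same times of placebo therapy (PLA, peritoneal injection of sterile saline). The labels give no age, and they name the members of a pair only as replicates, so that the p-values below measure the spread between these libraries.

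Collagens are proteins of 3 chains wound into a triple helix. Fibrillar collagens assemble into the fibrils that give tendon, skin and the connective sheaths of muscle their tensile strength, type IV collagen forms the sheet-like network on which muscle fibres, vessels and nerves rest, and the remaining types join fibrils to each other, to cells or to the basement membrane. In muscle the fibrillar chains are made mainly by fibroblasts of the sheaths around and between the fibres. A bulk sample of muscle therefore carries collagen RNA of several cell types, and more cells of a type cannot be told apart from more RNA per cell.

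Values are CPM (read counts relative to the size of the library, with the TMM scaling of the authors), and levels of different genes are not compared, since CPM is not corrected for length. The libraries held between 5371687 and 8899521 counted reads, of which between 0.0835% and 0.381% fell on collagens. A count of 0 allows up to 3 reads, or between 0.297 and 0.716 CPM, for counting error only. The label of muscle tissue held in all libraries: Acta1, skeletal alpha-actin, lay between 30415 and 134964 CPM. Cartilage markers were at or near 0, with a summed level of 5 listed genes between 0.280 and 2.38 CPM, and among 3 keratins of skin Krt14 and Krt15, of basal cells, did not exceed 0.853 CPM while Krt10, of upper layers, lay between 1.17 and 5.40 CPM. A few libraries stood apart in marker genes of other cell types. RA_0 replicate 2 had the highest sum of the 4 measured tendon markers (281 CPM, against 38.6 to 187 in the others) and of the Schwann cell markers (253 CPM, against 39.9 to 162), and PLA_34d replicate 1 had 36.3 CPM of Cd3e, a gene of T cells that did not exceed 4.22 CPM elsewhere. AP_1h replicate 1 had the highest level of Cd68, a gene of macrophages (24 CPM, against 2.84 to 15.9 in the others), and of Itgam, an integrin of myeloid cells (9.95 CPM, against 0.526 to 7.40). For some of the results that rest on these libraries, values without them are also given. The marker and pathway genes are given with all 10 libraries only.

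Of the 24 collagens, 18 passed the filter on low values (1 CPM or more in each library of some group): 8 fibrillar, 3 of the basement membrane and 7 others. The other 6 were Col2a1, Col4a4, Col9a1, Col9a2, Col13a1 and Col17a1. Col2a1, the chain of cartilage and of the immunising protein, was measured at 0.477 and 3.12 CPM in RA_0, 0.432 and 0 CPM in AP_1h, 0.0991 and 1.05 CPM in PLA_1h, 0.391 and 0 CPM in AP_34d, and 1.35 and 0.284 CPM in PLA_34d. Its highest count was 21 reads, in RA_0 replicate 2, and in 2 libraries no read was counted. Col13a1, a transmembrane collagen found at the junction of nerve and muscle, lay between 0.140 and 1.57 CPM, or 1 to 14 reads. Col17a1, a transmembrane collagen of epithelia, lay between 0.175 and 3.70 CPM and was highest in PLA_34d replicate 1. Col4a4 did not exceed 0.743 CPM, Col9a1 0.496 CPM and Col9a2 1.54 CPM.

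Type I collagen, the main fibril collagen of connective tissue, varied most between libraries of the same group. In build rn4, Col1a1 (NM_053304) lies on the plus strand at chr10:83622438-83639368 and Col1a2 (NM_053356) on the plus strand at chr4:29393645-29428572. Col1a1 was measured at 269 and 1248 CPM in RA_0, 878 and 397 CPM in AP_1h, 238 and 552 CPM in PLA_1h, 894 and 249 CPM in AP_34d, and 616 and 155 CPM in PLA_34d (replicates 1 and 2 in this order). Each group held a low and a high library, and the groups overlapped throughout. The mean was 758 ± 692 CPM in RA_0 (SD, n = 2), 638 ± 340 in AP_1h, 395 ± 222 in PLA_1h, 571 ± 456 in AP_34d and 385 ± 326 in PLA_34d. Across all libraries Col1a1 spanned an 8.07-fold range. Its within-group SD on the log2 scale was 1.22, against a median of 0.394 over all 10259 transcripts tested.

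Col1a2, the partner chain, followed the same order within every pair. It stood at 236 and 945 CPM in RA_0, 595 and 308 CPM in AP_1h, 191 and 412 CPM in PLA_1h, 641 and 172 CPM in AP_34d, and 409 and 151 CPM in PLA_34d. The CPM of Col1a1 divided by that of Col1a2 stayed between 1.02 and 1.51, a 1.47-fold range, while each chain alone moved 8.07-fold and 6.26-fold. The same library was the higher of its pair for Col1a1, for Col1a2 and for the sums of the tendon markers, of the genes for collagen synthesis and of the other basement membrane genes in 5 of 5 groups. For the summed fibroblast, endothelial and smooth muscle or pericyte markers this held in 4 of 5 groups, and for the sums of the other marker lists in 1 to 3. Such sums follow their most abundant members, and the tendon genes differed. Fmod and Kera shared the higher library with Col1a1 in every group and Tnmd in all but AP_1h. Scx did so only in AP_1h and PLA_34d. The part of the listed cell types in the spread was not tested. Among the 18 tested collagens, 8 more shared the higher library with Col1a1 in 4 of 5 groups. The share of all tested transcripts that did so was not counted, so this number has no background.

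Col3a1 (NM_032085, rn4 chr9:44281582-44317831, plus strand), the chain of type III collagen that forms fine fibrils around muscle fibres and in healing tissue, had its highest group mean 1 h into acupuncture. The values were 403 and 537 CPM in RA_0, 1178 and 746 CPM in AP_1h, 388 and 313 CPM in PLA_1h, 760 and 265 CPM in AP_34d, and 328 and 245 CPM in PLA_34d. The AP_1h libraries lay above those of RA_0 and of PLA_1h with no overlap, while AP_34d replicate 1 exceeded AP_1h replicate 2. Against PLA_1h the log2 difference was 1.42 (SE 0.50, 95% interval 0.31 to 2.53, unadjusted p = 0.0172), and the limma adjusted p over all transcripts was 0.912, so the difference did not pass. Against RA_0 it was 1.01 (SE 0.50, interval -0.10 to 2.12, limma adjusted p = 0.618). Over the alternatives the difference from PLA_1h lay between 1.09 and 1.75 and its adjusted p between 0.271 and 1.00. The unadjusted p under 0.05 was lost without AP_1h replicate 1, the library highest in Cd68 and Itgam (difference 1.09, SE 0.61, unadjusted p = 0.108), and without PLA_1h replicate 2 (1.27, SE 0.65, unadjusted p = 0.0827). The CPM of Col3a1 relative to Col1a1 ranged between 0.431 and 1.88, a 4.36-fold range, with the lowest ratio in RA_0 replicate 2 and the highest in AP_1h replicate 2.

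Type V collagen is a minor fibrillar collagen that is built into type I fibrils and limits their width. Col5a2 (rn4 chr9:44374113-44525086, minus strand) lies next to Col3a1, with 56281 bases between their ends. Its values were 39.8 and 80.9 CPM in RA_0, 83.1 and 75.4 CPM in AP_1h, 78.6 and 37.7 CPM in PLA_1h, 60.5 and 45.1 CPM in AP_34d, and 48.8 and 36.8 CPM in PLA_34d. Col5a3 (rn4 chr8:19789061-19834241, minus strand) stood at 20.8 and 30.0 CPM in RA_0, 32.6 and 28.4 CPM in AP_1h, 25.8 and 16.5 CPM in PLA_1h, 26.95 and 19.1 CPM in AP_34d, and 17.05 and 15.1 CPM in PLA_34d. For Col5a3 the acupuncture libraries lay above the placebo libraries of the same time without overlap, by a log2 difference of 0.54 at 1 h (SE 0.34, interval -0.21 to 1.29) and of 0.48 at 34 days (SE 0.34, interval -0.28 to 1.23). Neither passed the limma test (adjusted p = 1.00 and 0.890). Col5a1 ranged from 12.9 CPM in AP_1h replicate 2 to 37.6 CPM in RA_0 replicate 2.

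Col11a2 and Col27a1, fibrillar chains known from cartilage, were measured at low levels. Col11a2 (NM_212528, rn4 chr20:4924452-4953310, minus strand) was at 3.34 and 22.9 CPM in RA_0, 0.973 and 1.12 CPM in AP_1h, 4.16 and 4.39 CPM in PLA_1h, 3.52 and 2.99 CPM in AP_34d, and 14.2 and 2.42 CPM in PLA_34d. Both AP_1h libraries, with 8 reads in replicate 2, lay below all 8 others. The log2 difference of AP_1h from RA_0 was -2.32 (SE 0.79, interval -4.08 to -0.55, unadjusted p = 0.0150), with a limma adjusted p of 0.410. DESeq2 on the recovered reads was the exception among the alternatives, with a log2 difference of -3.67 and an adjusted p of 0.00844, and over all alternatives the adjusted p lay between 0.00844 and 0.816. Without RA_0 replicate 2 the limma difference was -1.09 (SE 0.74), and without AP_1h replicate 1 it was -2.26 (SE 1.03).

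Of the 4 tendon markers, 3 also had lower levels in both AP_1h libraries than in RA_0 without overlap (background 21%), and none passed the test (limma adjusted p = 0.0988 for Kera and 0.241 for Fmod and Tnmd). Fmod, fibromodulin, which binds collagen fibrils, was at 37.7 and 199 CPM in RA_0 and at 10.8 and 4.90 CPM in AP_1h, and Kera, keratocan, was at 10.97 and 50.6 CPM in RA_0 and at 0.649 and 0.280 CPM in AP_1h. Tnmd, tenomodulin, was at 5.96 and 15.7 CPM in RA_0 and at 0.216 and 0.420 CPM in AP_1h. Scx, a transcription factor of tendon cells and the fourth listed tendon gene in the table, was at 35.5 and 16 CPM in RA_0 and at 50.9 and 33.0 CPM in AP_1h. The summed level of the list was 90.2 and 281 CPM in RA_0, 62.6 and 38.6 CPM in AP_1h, and between 39.2 and 187 CPM in the other groups. Scx made up most of the AP_1h sums. Fmod, Kera and Tnmd were lower in both AP_1h libraries than in every other library. The lowest values outside AP_1h were 27.1, 6.82 and 0.995 CPM, in PLA_34d replicate 2. Against PLA_1h, 3 of the 4 had an unadjusted p under 0.05 in limma (background 4.04%). In the F test of limma all 4 did (background 4.98%), and none was called. None of the 5 cartilage markers passed the filter on low values. They summed to 0.954 and 2.38 CPM in RA_0 and to 0.541 and 0.280 CPM in AP_1h. Most of each sum was Lect1, chondromodulin, at 0.716 and 1.49 CPM in RA_0 and at 0.324 and 0.280 CPM in AP_1h. In replicate 1 of both groups the Lect1 value equals 3 reads, so the cartilage sums rest on few reads and show no clear difference. Acan, aggrecan, did not exceed 0.743 CPM. The part of tendon or cartilage tissue in the Col11a2 difference was not tested.

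Col27a1 (NM_198747, rn4 chr5:80198078-80316354, plus strand, overlapping Mir455) was at 0.954 and 2.82 CPM in RA_0, 1.08 and 1.40 CPM in AP_1h, 1.98 and 0.526 CPM in PLA_1h, 0.195 and 1.79 CPM in AP_34d, and 7.29 and 1.99 CPM in PLA_34d. Its range was from 1 read in AP_34d replicate 1 to 65 reads in PLA_34d replicate 1. AP_34d was below PLA_34d without overlap, with a log2 difference of -1.45 (SE 0.62, interval -2.83 to -0.06, unadjusted p = 0.0422, limma adjusted p = 0.856). Leaving out PLA_34d replicate 1, the library high in Cd3e, gave -0.71 (SE 0.65, unadjusted p = 0.300). Over the alternatives the difference lay between -2.37 and -0.71 and its adjusted p between 0.121 and 1.00.

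**Figure D1:**
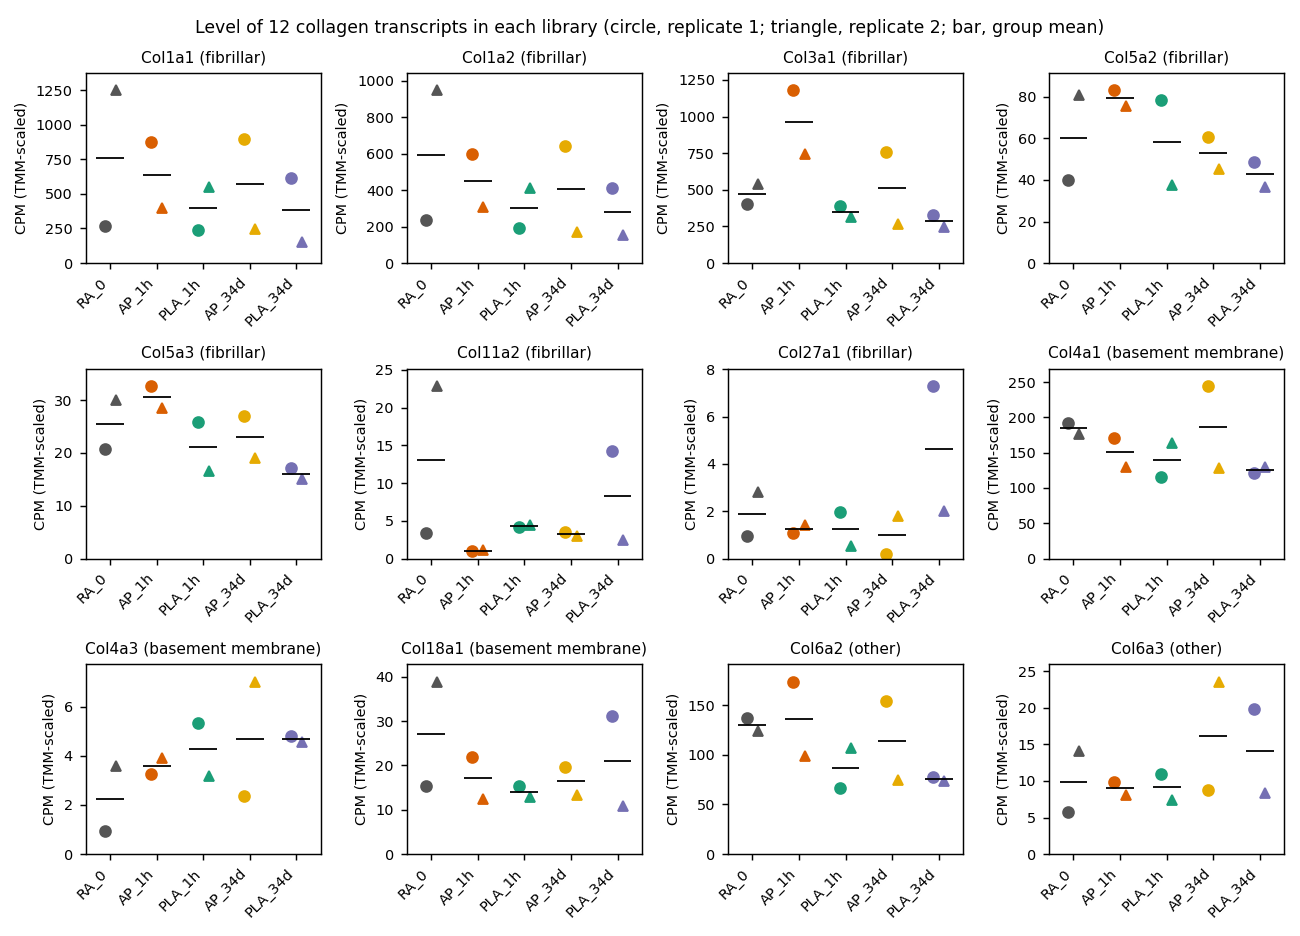
Level in CPM (TMM-scaled, linear axes from 0) of 12 collagen transcripts in the 10 libraries, with replicate 1 as a circle, replicate 2 as a triangle and the group mean as a bar. Col1a1 and Col1a2 have a high and a low library in every group, Col3a1 lies higher in the AP_1h libraries (1178 and 746 CPM) than in those of RA_0 and PLA_1h, and Col11a2 is lowest in AP_1h (0.973 and 1.12 CPM).

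The basement membrane chains included the collagen with the narrowest range. Col4a1 (NM_001135009, rn4 chr16:83045183-83157835, plus strand), a chain of the type IV network found under most cell sheets and around muscle fibres, was at 193 and 177 CPM in RA_0, 171 and 130 CPM in AP_1h, 115 and 163 CPM in PLA_1h, 244 and 129 CPM in AP_34d, and 122 and 129 CPM in PLA_34d. RA_0 was above AP_1h, PLA_1h and PLA_34d without overlap. The log2 differences from RA_0 were -0.31 in AP_1h, -0.42 in PLA_1h and -0.56 in PLA_34d (SE 0.36 each), and none passed (limma adjusted p = 0.848, 1.00 and 0.914). The range of 2.12-fold was the narrowest of the 18 tested collagens.

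Col4a3 (NM_001135759, rn4 chr9:81910656-82036998, plus strand) and Col4a4 (chr9:81866835-81910088, minus strand) are chains of the specialised type IV network known from kidney and from the synapse of nerve and muscle. They lie head to head, with 567 bases between their starts. Col4a3 was at 0.954 and 3.56 CPM in RA_0, 3.24 and 3.92 CPM in AP_1h, 5.35 and 3.16 CPM in PLA_1h, 2.34 and 7.02 CPM in AP_34d, and 4.82 and 4.55 CPM in PLA_34d. PLA_34d was above RA_0 without overlap, by a log2 difference of 0.93 (SE 0.52, interval -0.23 to 2.09, limma adjusted p = 0.914). Col4a4 was between 0.239 and 0.743 CPM, at most 7 reads, and both chains had their lowest value in RA_0 replicate 1. Col18a1 (NM_053489, rn4 chr20:11872459-11982466, plus strand), whose protein carries endostatin at its end, was at 15.3 and 38.9 CPM in RA_0, 21.8 and 12.3 CPM in AP_1h, 15.4 and 12.8 CPM in PLA_1h, 19.7 and 13.3 CPM in AP_34d, and 31.2 and 10.9 CPM in PLA_34d. Its high libraries, RA_0 replicate 2 and PLA_34d replicate 1, are those that stood apart in marker genes.

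Among the other collagens, Col6a2 (NM_001100741, rn4 chr20:12436783-12464512, plus strand), a chain of the beaded filaments that anchor the basement membrane of muscle fibres, was at 137 and 124 CPM in RA_0, 174 and 98.7 CPM in AP_1h, 66.6 and 107 CPM in PLA_1h, 154 and 74.7 CPM in AP_34d, and 77.4 and 73.3 CPM in PLA_34d. RA_0 was above PLA_1h and PLA_34d without overlap, and the log2 differences were -0.62 and -0.78 (SE 0.42 each, limma adjusted p = 1.00 and 0.914). Col6a3 (NM_001109008), another chain of the same filaments, was at 5.73 and 14.1 CPM in RA_0, 9.84 and 8.12 CPM in AP_1h, 11 and 7.37 CPM in PLA_1h, 8.79 and 23.6 CPM in AP_34d, and 19.9 and 8.39 CPM in PLA_34d. The groups overlapped in all comparisons.

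Col14a1 (NM_001130548), a fibril-associated collagen of the muscle sheath and tendon, was at 18.8 and 17.5 CPM in RA_0, 25.2 and 18.6 CPM in AP_1h, 20.7 and 18.6 CPM in PLA_1h, 37.7 and 13.1 CPM in AP_34d, and 17.2 and 9.10 CPM in PLA_34d. It was lower in PLA_34d than in RA_0 without overlap, and it did not pass the test. Col7a1 (NM_001106858, overlapping Mir711), the chain of anchoring fibrils, was at 14.1 and 4.90 CPM in RA_0, 16.4 and 3.64 CPM in AP_1h, 5.75 and 21.4 CPM in PLA_1h, 7.23 and 14 CPM in AP_34d, and 4.26 and 8.10 CPM in PLA_34d. Every pair differed, in no common direction. Of the remaining tested chains, Col16a1 lay between 1.42 and 8.76 CPM, Col8a1 between 1.19 and 4.78 CPM and Col23a1 between 0.716 and 2.67 CPM.

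The classes can be set beside each other as sums. Fibrillar collagens summed to 1951 ± 1353 CPM in RA_0 (SD, n = 2), 2183 ± 867 in AP_1h, 1149 ± 289.6 in PLA_1h, 1591 ± 1161 in AP_34d and 1043 ± 594 in PLA_34d. Basement membrane collagens summed to 215 ± 7.97 CPM in RA_0, 172 ± 35.0 in AP_1h, 158 ± 30.4 in PLA_1h, 208 ± 83.0 in AP_34d and 152 ± 9.30 in PLA_34d. The other collagens summed to 179 ± 2.07 CPM in RA_0, 187 ± 70.2 in AP_1h, 138 ± 32.1 in PLA_1h, 177 ± 56.3 in AP_34d and 121 ± 21.1 in PLA_34d. The fibrillar sum had a 4.67-fold range over the libraries, the basement membrane sum 1.95-fold and the other sum 2.23-fold. Few chains carried most of each sum. They were Col1a1, Col1a2 and Col3a1 for fibrillar, Col4a1 for basement membrane and Col6a2 for other collagens. Without Col1a1, Col1a2 and Col3a1 the fibrillar sum lay between 72.5 and 177 CPM. It was then 146 and 119 CPM in AP_1h and 127 and 76.0 CPM in PLA_1h, with overlap. The sums and read shares therefore describe mainly these chains. Fibrillar chains took between 71.3% (Wilson 95% interval 70.1 to 72.4, PLA_34d replicate 2) and 88.0% (87.5 to 88.4, RA_0 replicate 2) of the collagen reads of a library, and basement membrane chains between 6.08% (5.81 to 6.36, AP_1h replicate 1) and 16.6% (15.7 to 17.5, PLA_34d replicate 2). The fibrillar share was 86.6% and 84.7% in AP_1h and 79.0% and 79.9% in PLA_1h, without overlap, and in RA_0 it was 71.9% and 88.0%, so that RA_0 enclosed both.

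Every group after RA_0 had received a therapy, so therapy and elapsed time cannot be told apart in the comparisons with RA_0. The paper took tissue around the stimulated points, while the placebo was injected into the peritoneum, so the therapies also differed in where the needle entered. The comparisons with RA_0 ask what differed after each therapy, and those of acupuncture with placebo at 1 time ask whether the therapies differed. No collagen passed a limma adjusted p under 0.05 in any of them, nor did any with limma-voom or edgeR, and DESeq2 called 1, Col11a2 in AP_1h against RA_0, where it called 173 of all 10259 transcripts (background 1.69%, against 0.107% to 0.877% in the other comparisons). With any single library left out, RA_0 replicate 2 and PLA_34d replicate 1 included, limma also called 0. In AP_1h against RA_0, 0 of 18 collagens were called (background 0.0292%, 3 of all 10259 transcripts), and 1 had an unadjusted p under 0.05 (Col11a2, background 8.89%). Without overlap, 1 was higher (Col3a1, background 20.6%) and 2 were lower (Col4a1 and Col11a2, background 21%). The median log2 change of the tested collagens was -0.04, against 0.00 over all transcripts, with -0.06 for fibrillar, -0.31 for basement membrane and -0.02 for other collagens. Without AP_1h replicate 1 the fibrillar median was -0.37.

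In AP_34d against RA_0, 0 collagens were called (background 0%) and 0 had an unadjusted p under 0.05 (background 4.77%). The libraries of the groups overlapped for all 18, so that 0 were higher (background 16.4%) and 0 lower (background 15.9%) without overlap. All 8 fibrillar chains had a negative log2 change, with a median of -0.40 against -0.01 over all transcripts. The changes of Col1a1 (-0.30, SE 0.91, interval -2.33 to 1.73) and Col3a1 (-0.05, SE 0.50, interval -1.16 to 1.06) show how wide the intervals were. Without RA_0 replicate 2 the fibrillar median was 0.14, and without AP_34d replicate 2 it was 0.10.

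In PLA_1h against RA_0, 0 collagens were called (background 0%) and 0 had an unadjusted p under 0.05 (background 2.59%). Without overlap, 0 were higher (background 15.8%) and 4 were lower, namely Col3a1, Col4a1, Col5a1 and Col6a2 (background 13.6%). The fibrillar median was -0.54, the basement membrane median -0.42 and the other median -0.01. Again all 8 fibrillar chains had a negative change, and without RA_0 replicate 2 their median was 0.19.

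In PLA_34d against RA_0, 0 collagens were called (background 0%) and 0 had an unadjusted p under 0.05 (background 3.2%). Without overlap, 1 was higher (Col4a3, background 16.8%) and 6 were lower (Col3a1, Col4a1, Col5a1, Col5a3, Col6a2 and Col14a1, background 14.2%). The fibrillar median was -0.61, the basement membrane median -0.38 and the other median -0.27, against -0.01 over all transcripts. These 4 comparisons share the RA_0 libraries. Without RA_0 replicate 2 the fibrillar median was 0.08, and without PLA_34d replicate 1 Col1a1 went from -0.91 to -1.90 (SE 1.00, limma adjusted p = 1.00).

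**Figure D2:**
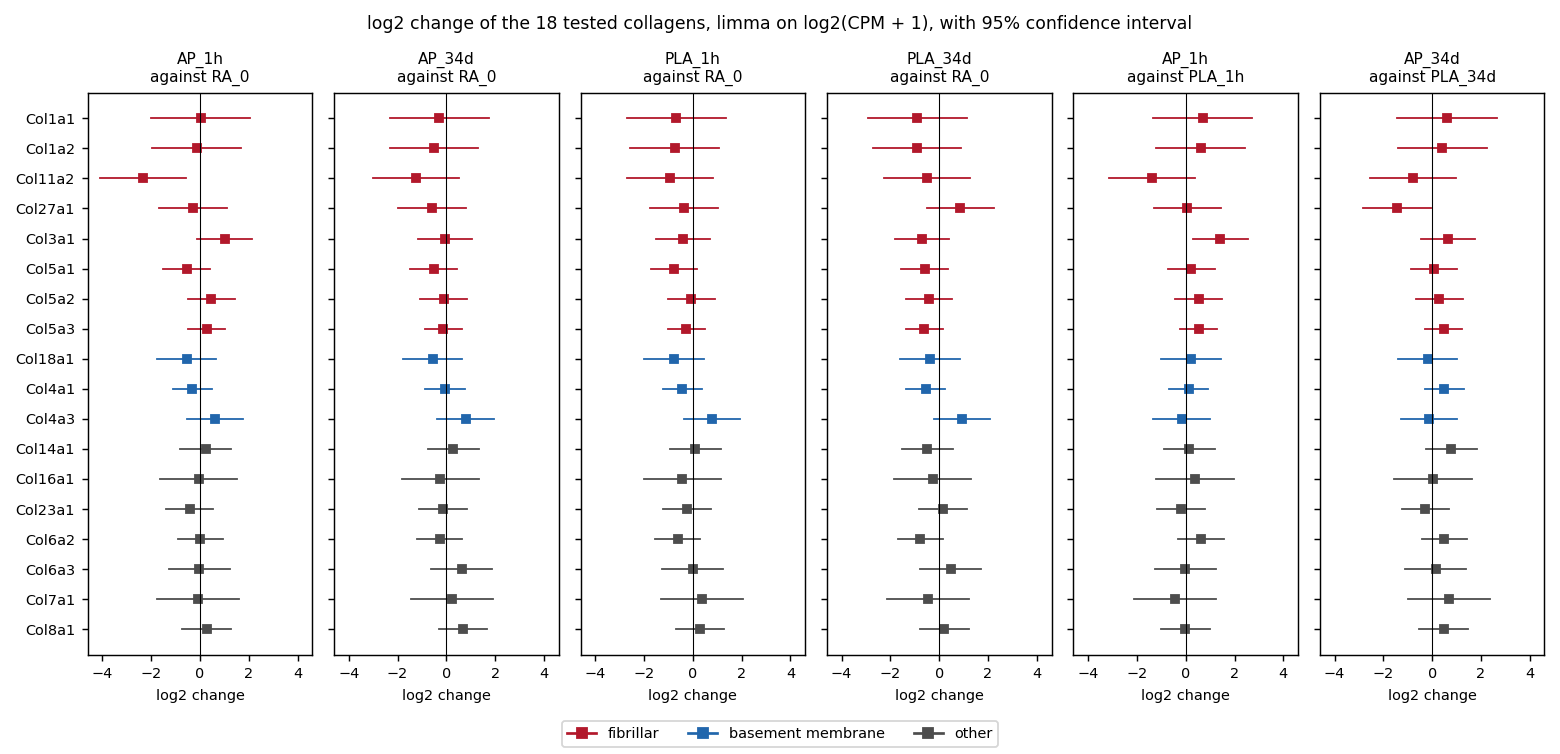
log2 change of the 18 tested collagens in the 6 comparisons, from limma on log2(CPM + 1), with squares for the estimate and lines for its 95% confidence interval, coloured by class. The intervals of Col11a2 in AP_1h against RA_0, Col3a1 in AP_1h against PLA_1h and Col27a1 in AP_34d against PLA_34d leave out 0, and none of these passed the adjustment over all transcripts.

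In AP_1h against PLA_1h, 0 collagens were called (background 0%) and 1 had an unadjusted p under 0.05 (Col3a1, background 4.04%). Without overlap, 2 were higher (Col3a1 and Col5a3, background 13.9%) and 2 were lower (Col11a2 and Col23a1, background 16.7%). Of the 8 fibrillar chains 7 had a positive change, with a class median of 0.53 against 0.01 over all transcripts, while the basement membrane median was 0.12 and the other median -0.01. With each library left out in turn the fibrillar median stayed between 0.15, without AP_1h replicate 1, and 0.69. For Col1a1 the change was 0.70 (SE 0.91, interval -1.33 to 2.73).

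In AP_34d against PLA_34d, 0 collagens were called (background 0%) and 1 had an unadjusted p under 0.05 (Col27a1, background 5.47%). Without overlap, 1 was higher (Col5a3, background 16%) and 1 was lower (Col27a1, background 15%). The fibrillar median was 0.36, the basement membrane median -0.13 and the other median 0.47. Without PLA_34d replicate 2 the fibrillar median was -0.30 and the other median -0.27.

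Across all 5 groups the moderated F test of limma called 0 of 18 collagens (background 0%), and 0 had an unadjusted p under 0.05 (background 4.98%), with the lowest adjusted p at 0.987. The test of whether the difference between acupuncture and placebo changed from 1 h to 34 days called 0 collagens (background 0%), 0 had an unadjusted p under 0.05 (background 4.05%), and the lowest adjusted p was 1.00. For Col3a1 that difference was -0.76 (SE 0.71, interval -2.33 to 0.81).

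The spread within groups exceeded that of the group means for most collagens, as it did for most transcripts. Means of 2 libraries vary less than single libraries even without a group difference, so this order alone is not particular to collagens. The median within-group SD of the tested collagens was 0.58 on the log2 scale, against 0.39 over all transcripts tested, and 15 of the 18 collagens exceeded the latter value. The SD of the group means had a median of 0.32 for collagens and 0.27 for all transcripts. It exceeded the within-group SD for 2 of 18 collagens, Col3a1 and Col5a3 (11.1%), and for 2260 of all transcripts (22%). RA_0 replicate 2 held the highest value of 7 of the 18 collagens and PLA_34d replicate 2 the lowest value of 8. The share of all tested transcripts with their highest or lowest value in these libraries was not counted, so these numbers have no background.

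**Figure D3:**
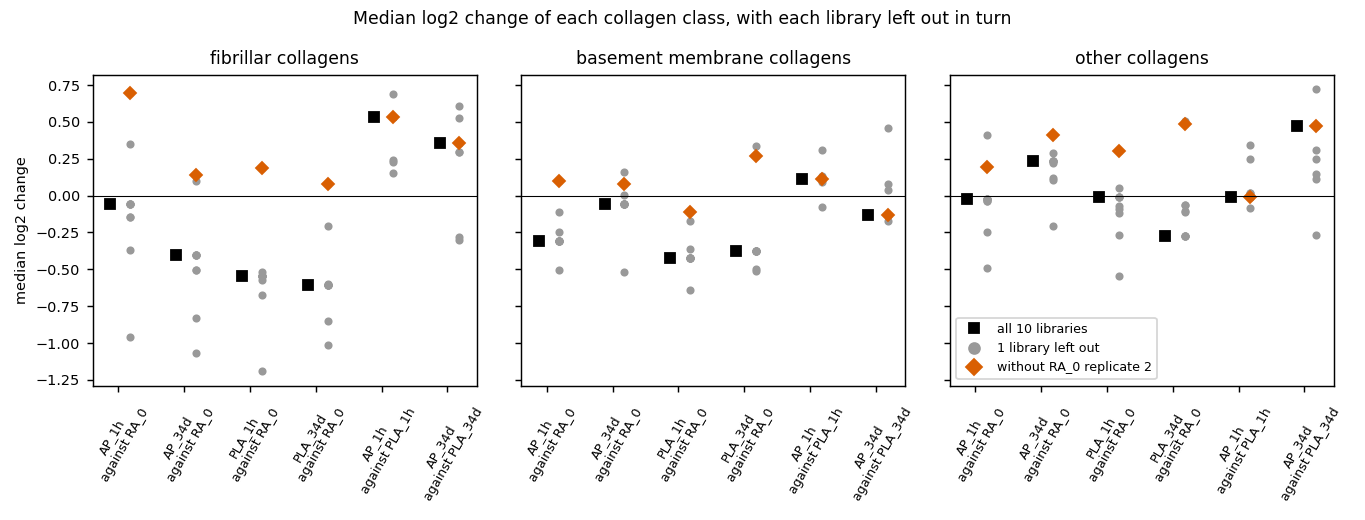
Median log2 change of the tested fibrillar (8), basement membrane (3) and other (7) collagens in the 6 comparisons, with black squares for all 10 libraries, grey circles for fits with 1 library left out and orange diamonds for the fit without RA_0 replicate 2. In the fibrillar class the 4 medians against RA_0 run from -0.06 to -0.61 with all libraries and from 0.08 to 0.69 without RA_0 replicate 2.

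Chains of the same collagen type did not all vary together. The pairs of tested chains of the same type, with Col1a1 and Col3a1 added after the values had been seen, gave 7 correlations of log2(CPM + 1) over the 10 libraries, in which the points of a pair share a library and its scaling. Col1a1 and Col1a2 had r = 0.99 (permutation p = 2e-05, adjusted over the 7 pairs 0.00014) and rho = 0.98 (permutation p = 4e-05, adjusted 0.00028), with r = 0.99 without the 2 libraries farthest from the median of Col1a1 and r = 0.99 within groups. Col5a2 and Col5a3 had r = 0.92 (permutation p = 0.00105, adjusted 0.00367) and rho = 0.92 (permutation p = 0.00047, adjusted 0.00164), with r = 0.88 without the 2 farthest libraries and 0.96 within groups. For Col5a1 the correlation with Col5a2 was 0.40 (permutation p = 0.247, adjusted 0.247; rho = 0.50, p = 0.144, adjusted 0.168) and with Col5a3 0.49 (permutation p = 0.147, adjusted 0.206; rho = 0.52, p = 0.133, adjusted 0.168). Without both RA_0 replicate 2 and AP_1h replicate 1, r was -0.16 with Col5a2 and 0.02 with Col5a3, and within groups it was 0.59 and 0.69. With each library left out in turn, r lay between 0.20 and 0.64 with Col5a2 and between 0.35 and 0.73 with Col5a3.

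Col1a1 and Col3a1 had r = 0.64 (permutation p = 0.0466, adjusted 0.0816) and rho = 0.67 (permutation p = 0.0383, adjusted 0.067), which did not pass the adjustment, and r was 0.61 without the 2 farthest libraries (permutation p = 0.113) and 0.71 within groups. Col6a2 and Col6a3 had r = -0.45 (permutation p = 0.197, adjusted 0.23) and rho = -0.31 (permutation p = 0.388, adjusted 0.388), with r = -0.55 without the 2 farthest libraries and -0.49 within groups. Over 5 alternative scalings and pseudocounts the r of this pair lay between -0.45 and -0.0032. Col4a1 and Col4a3 went in opposite directions, with r = -0.76 (permutation p = 0.0089, adjusted 0.0208), rho = -0.90 (permutation p = 0.00085, adjusted 0.00198), r = -0.76 without the 2 farthest libraries and r = -0.81 within groups. This r depended on the scaling: it was -0.76 with DESeq2 size factors (permutation p = 0.00882), -0.48 with library totals that left out the 20 most abundant transcripts (permutation p = 0.161) and -0.23 with plain library totals (permutation p = 0.529). With each library left out in turn it lay between -0.85 and -0.74.

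**Figure D4:**
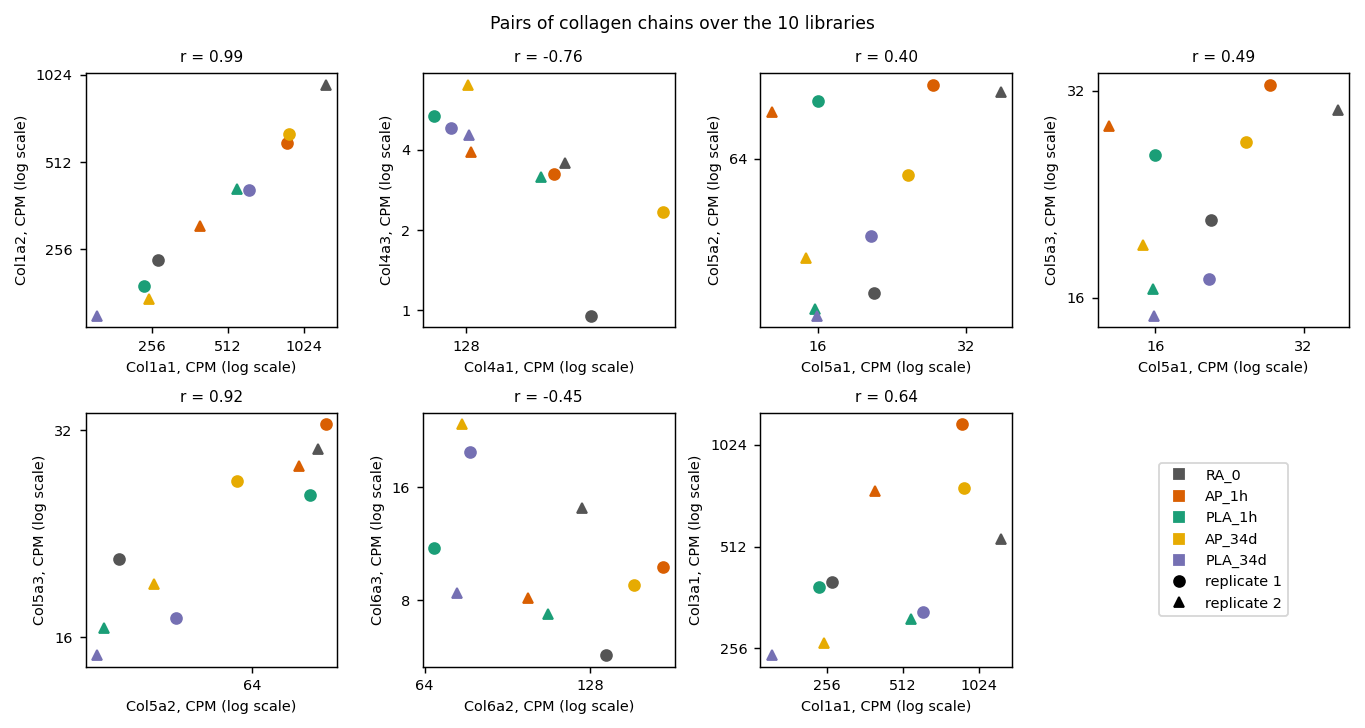
CPM of pairs of collagen chains over the 10 libraries on logarithmic axes, with colours for groups, circles for replicate 1 and triangles for replicate 2, and Pearson's r of log2(CPM + 1) above each panel. Col1a1 and Col1a2 (r = 0.99) and Col5a2 and Col5a3 (r = 0.92) lie along a line, whereas Col6a2 and Col6a3 (r = -0.45) do not.

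Stretches before the transcription start are printed for a chain of each pair that varied together, to show what their promoters hold: Col1a2 for type I, and Col5a2 and Col5a3 for type V. The sequences are from RefSeq (build GRCr8, in which 19 of the 24 collagens matched by symbol), 5′ to 3′ on the strand of the gene. Capitals mark CCAAT, the box bound by factor NF-Y, read on either strand (ATTGG on the other), and TATAAA, read on either strand (TTTATA on the other). The 2 motifs do not overlap each other here.
Col1a2, chr4:33518307-33518456, plus strand, bases 250 to 101 before the annotated start: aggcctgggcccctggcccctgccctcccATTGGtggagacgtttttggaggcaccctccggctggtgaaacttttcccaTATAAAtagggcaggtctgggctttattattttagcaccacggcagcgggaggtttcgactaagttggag
Col5a2, chr9:55090152-55090401, minus strand, bases 250 to 1: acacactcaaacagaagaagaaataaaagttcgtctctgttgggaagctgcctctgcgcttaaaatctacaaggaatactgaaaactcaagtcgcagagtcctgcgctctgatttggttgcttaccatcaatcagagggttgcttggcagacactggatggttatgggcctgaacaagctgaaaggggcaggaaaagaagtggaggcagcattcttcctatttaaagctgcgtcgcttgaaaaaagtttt
Col5a3, chr8:27625949-27626198, minus strand, bases 250 to 1: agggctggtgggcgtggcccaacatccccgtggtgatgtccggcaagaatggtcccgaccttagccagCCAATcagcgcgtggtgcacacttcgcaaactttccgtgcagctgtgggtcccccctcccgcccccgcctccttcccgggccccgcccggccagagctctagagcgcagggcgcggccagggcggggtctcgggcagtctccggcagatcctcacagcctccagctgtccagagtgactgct
The Col1a2 stretch held 1 match of each motif, Col5a3 held 1 CCAAT match and Col5a2 held none. In the 250 bases before the start, CCAAT was present in 4 of the 19 collagens and in 34.0% of all 33469 promoters, and TATAAA in 3 of the 19 and in 12.9% of all. Col5a2 and Col5a3 shared neither motif in this window. Col1a1 was not among the collagens matched by symbol, so the type I pair could not be set side by side. Whether the motifs bear on how chains varied was not tested.

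Of the listed genes that make, process, bind or regulate collagen, limma, limma-voom and edgeR called 0 in all comparisons, and DESeq2 called 2, Leprel1 and Tmem38b, in AP_1h against RA_0 (background 1.69%). In the list for synthesis and cross-linking, 27 of 31 transcripts in the table were tested, and in AP_1h against RA_0 0 were called, 1 had a positive and 3 a negative log2 change at an unadjusted p under 0.05 (background 8.89%). Leprel1, a prolyl 3-hydroxylase that modifies type IV collagen, changed by -2.13 (log2, SE 0.54) with 0.241 as its limma adjusted p, Leprel4, a partner of these enzymes in the endoplasmic reticulum, had -1.04 (SE 0.36), and Tmem38b, a channel of the endoplasmic reticulum needed for collagen assembly, had 1.38 (SE 0.39). Tmem38b also had 1.22 in PLA_1h and 0.88 in AP_34d, and Loxl3, a lysyl oxidase that cross-links collagen, had -1.12 in PLA_1h and -1.41 (SE 0.50) in AP_34d, each against RA_0. Leprel1 also had -1.61 (SE 0.54, limma adjusted p = 0.869) in AP_1h against PLA_1h, the single gene of the list past an unadjusted p under 0.05 there. The median of the list in AP_1h against RA_0 was -0.23.

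Of the collagen receptors, 6 of 9 transcripts were tested. Itga1, the integrin chain that binds type IV collagen, differed by 1.53 on the log2 scale (SE 0.51, with a limma adjusted p of 0.914) in PLA_34d against RA_0, and no other receptor had an unadjusted p under 0.05 (background 3.2%). Among other basement membrane genes, 8 of 9 were tested, and between 0 and 2 had an unadjusted p under 0.05 in a comparison (background 2.59% to 8.89%). Lamc3, a laminin chain, had -1.47 (SE 0.34, limma adjusted p = 0.233) in AP_1h, -0.75 in PLA_1h and -0.83 in AP_34d, each against RA_0. Nid2, nidogen, which links laminin to type IV collagen, had -0.85 (SE 0.35) in PLA_1h against RA_0, Lamb3 had -1.31 (SE 0.52) in AP_34d against RA_0, and Lamc1 had 0.68 (SE 0.29) in AP_34d against PLA_34d. All 13 genes of the list of collagen regulators in the table were tested, and between 0 and 3 had an unadjusted p under 0.05 in a comparison (the same background), with 3 in AP_1h against RA_0 (background 8.89%). Ltbp1, which holds latent TGF-beta in the matrix, had 1.65 (SE 0.56) in AP_1h, 1.48 in PLA_1h and 1.52 in AP_34d, each against RA_0, and Tgfbr1, a TGF-beta receptor, had 1.15 (SE 0.42) in AP_1h against RA_0. Smad7, an inhibitor of TGF-beta signalling, had -1.28 (SE 0.48) in AP_1h against RA_0, and Ctgf, a matrix protein induced by TGF-beta, had -1.39 (SE 0.60) in AP_34d against RA_0. The fits against RA_0 share its libraries, so these repeated values are not separate observations.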

How the data were processed

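As the labels state, muscle samples were frozen and RNA was extracted in a single batch. TruSeq RNA v2 libraries were sequenced on an Illumina HiSeq. The submitters' processing notes name CASAVA 1.8.2, cutadapt 1.2.1, Bowtie2 2.1.0 (build rn4), HTSeq 0.5.4p3 (per transcript, reads fitting several transcripts dropped) and edgeR 3.4.2. The authors deposited a signal per transcript: counts scaled to CPM with TMM factors. Whether counting used strand is not stated. Values were whole multiples of 1 read (100% within 0.01 reads), so read counts were recovered. Start coordinates were shifted to count from 1.

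Values were tested as log2(CPM + 1), a scale that understates changes of low transcripts, with limma 3.58.1 (eBayes with a mean trend, 1 mean per group, all 10 libraries, 5 residual and 5.14 prior degrees of freedom) over 10259 transcripts with 1 CPM or more in each library of some group. A Benjamini-Hochberg adjusted p under 0.05 over all of them counted as a call. An exact permutation test of 2 against 2 libraries cannot go below p = 0.333, so none was used. Correlations used 100000 permutations, two-sided (smallest possible p 1e-05). "Without overlap" means that both libraries of a group lay above both of the other. The text names the members called, those with an unadjusted p under 0.05 without overlap, the members of highest mean CPM in each class, and tissue-restricted members set by name. Of the pathway lists it names members past an unadjusted p under 0.05 without overlap, up to 3 per list and comparison. The members and lists were chosen with earlier results of these data known. Alternatives were limma-voom, edgeR 4.0.16 and DESeq2 1.42.0 on the recovered reads, pseudocounts of 0.25 and 4, testing without a filter or with a mean of 5 CPM or more, library totals alone, DESeq2 size factors, library totals without the 20 most abundant transcripts, fits of the compared groups alone, without the mean trend or with a replicate block, each library left out, the study's rule on limma or limma-voom (unadjusted p under 0.05, at least 2-fold, mean of at least 1 CPM) and a basement membrane class of type IV alone. The fits were tested on simulated data. R 4.3.3, Python 3.11.15 and matplotlib 3.10.9 were used. The intervals of read shares cover counting error only.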

Additional observations from a re-analysis of the deposited data

How the results depend on the processing

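The count of collagens called was 0 under nearly all alternatives. The exceptions were 1 in AP_1h against RA_0 with DESeq2 (Col11a2), and, by the study's rule without adjustment applied to log2(CPM + 1), 1 in AP_1h against RA_0 (Col11a2, background 6.12%), 1 in AP_1h against PLA_1h (Col3a1, background 2.62%) and 1 in AP_34d against PLA_34d (Col27a1, background 3.57%). The study used limma-voom. With it (chosen after seeing the data) the rule passed 1 (Col11a2, background 5.97%), 1 (Col3a1, background 3.09%) and 0 collagens (background 3.26%) in these comparisons. The cause was not tested. The labels do not say whether replicate numbers pair the libraries. Correlations of deviations by replicate number lay between -0.464 and 0.446 over 10 pairs of groups, which with 2 libraries per group cannot settle it. With a replicate block 0 collagens were called in every test.

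Class medians depended on single libraries. Of 24 medians, 23 changed sign under at least 1 alternative, and 14 did so without RA_0 replicate 2. With each library left out, the fibrillar median ranged from -0.96 to 0.69 in AP_1h, -1.06 to 0.14 in AP_34d, -1.19 to 0.19 in PLA_1h and -1.02 to 0.082 in PLA_34d against RA_0, and from -0.30 to 0.61 in AP_34d against PLA_34d. The median of all collagens ranged from -0.60 to 0.36, -0.62 to 0.19 and -0.73 to 0.14 in AP_1h, PLA_1h and PLA_34d against RA_0, and from -0.23 to 0.53 in AP_34d against PLA_34d. The other collagens ranged from -0.55 to 0.31 in PLA_1h and -0.27 to 0.50 in PLA_34d against RA_0 and from -0.27 to 0.73 in AP_34d against PLA_34d, and the basement membrane median from -0.51 to 0.34 in PLA_34d against RA_0. Without the 20 most abundant transcripts in the totals the median of other collagens was 0.32 in PLA_34d against RA_0 and -0.054 in AP_34d against PLA_34d. With that scaling the median of all transcripts was itself 0.16 and -0.17 in these comparisons, and with library totals alone it was 0.23 and -0.19. The correlation of Col4a1 and Col4a3 fell to -0.48 without the 20 most abundant transcripts (permutation p = 0.161). The correlation alternatives were chosen after seeing the data. Low depth limits Col2a1, Col4a4, Col9a1, Col9a2, Col13a1 and Col17a1, which had at most 33 reads in a library.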
